A study of Mus musculus with 22 samples.

Results

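Panc02 is a mouse line derived from pancreatic ductal adenocarcinoma. Its RNA was sequenced after growth together with natural killer (NK) cells in a dish and after growth as a tumour in mice. The 12 libraries compared here, 4 co-cultures and 8 allografts, were chosen by their labels from the 22 libraries of the series. Each co-culture held Panc02 and NK cells from mouse spleen for 24 h in the presence of the survival factor IL-2 (interleukin-2), with 2 libraries from female and 2 from male NK donors. The allografts were Panc02 tumours from a syngeneic mouse model, 4 from female and 4 from male hosts. Panc02 cultured alone (2 libraries) gave the level of the line before contact with NK cells, and NK cells cultured alone for 24 h with IL-2 (4 libraries) gave the level of each gene in NK cells. The strain, age, tumour site, length of growth and ratio of NK cells to tumour cells are not given in the sources used here. No IL-2 is named for Panc02 cultured alone, so the parts of NK cells and of IL-2 in a co-culture cannot be told apart. The allografts stand in a deposited table of their own and were made from more RNA per library, so table, RNA input and growth in a host cannot be told apart either. The comparison asks which genes that NK cells induce in Panc02 cultures were found at a like or higher level in tumours, and which appeared with growth in a host.

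Interferon gamma is a cytokine secreted by activated NK and T cells. It binds a receptor of the chains IFNGR1 and IFNGR2, which activates the kinases JAK1 and JAK2. The signal acts through DNA elements called GAS and switches on the transcription factor IRF1, which in turn binds ISRE-type elements. Target genes include guanylate-binding proteins (GBPs) and immunity-related GTPases (IRGs), which attack vacuoles of intracellular pathogens, and the machinery that loads peptides on MHC molecules. Cancer cells that sense interferon gamma also raise PD-L1 (Cd274), the ligand that restrains T cells.

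The promoters of the genes on which the comparison turns are shown first, since they carry these elements close to the start of transcription. Each line gives the 120 bases before the start in RefSeq (build GRCm38.p6, which is older than the GRCm39 build of the counts), written 5′ to 3′ on the gene's strand. Capitals mark a GAS element (TTCNNNGAA) or an ISRE-type element (GAAANNGAA, or its complement), searched on both strands.
Igtp, chr11:58199436-58199555, plus strand: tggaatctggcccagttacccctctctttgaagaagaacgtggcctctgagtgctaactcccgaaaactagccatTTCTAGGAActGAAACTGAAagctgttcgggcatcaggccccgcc
Irgm2, chr11:58214857-58214976, plus strand: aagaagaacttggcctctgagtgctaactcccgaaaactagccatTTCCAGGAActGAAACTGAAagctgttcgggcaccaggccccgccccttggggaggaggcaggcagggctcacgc
Tgtp1, chr11:48992247-48992366, minus strand: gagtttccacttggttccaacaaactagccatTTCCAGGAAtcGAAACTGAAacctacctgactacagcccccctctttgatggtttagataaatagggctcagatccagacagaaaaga
Irgm1, chr11:48871421-48871540, minus strand: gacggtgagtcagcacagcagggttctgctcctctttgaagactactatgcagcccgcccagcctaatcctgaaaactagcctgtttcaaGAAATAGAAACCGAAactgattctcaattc
Gbp2, chr3:142620543-142620662, plus strand: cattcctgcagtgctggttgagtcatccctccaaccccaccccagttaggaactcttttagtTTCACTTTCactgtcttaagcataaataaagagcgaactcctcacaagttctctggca
Irf1, chr11:53769894-53770013, plus strand: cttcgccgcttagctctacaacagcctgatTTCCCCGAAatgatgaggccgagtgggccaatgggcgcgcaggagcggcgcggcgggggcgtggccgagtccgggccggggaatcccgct
Cd274, chr19:29367318-29367437, plus strand: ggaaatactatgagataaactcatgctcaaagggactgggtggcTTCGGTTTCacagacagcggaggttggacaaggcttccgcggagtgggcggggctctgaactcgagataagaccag
In Igtp, Irgm2 and Tgtp1 a GAS element was followed by an ISRE-type element after 2 bases. Irgm1 held a pair of overlapping ISRE-type elements at 30 and 24 bases before its start, and Gbp2 and Cd274 had an ISRE-type element on the opposite strand. Irf1 held a GAS element 90 bases before its start, and its second promoter in the table, which starts further downstream, held neither element in its own 120 bases, which are not printed. Over 300 bases around each start (250 before and 50 after), a GAS element was present in 9.55% and an ISRE-type element in 9.76% of 27025 genes. A gene was counted if any of its promoters held the element. An ISRE-type element was present in 5 of the 5 GBP genes and 7 of the 9 IRG genes with a promoter in the table, against 1 of 26 cell cycle genes and 0 of 12 cholesterol synthesis genes. Other interferon-responsive lists lay between, with 15 of 27 type I interferon, 3 of 14 MHC class I, 2 of 10 non-classical class I and 1 of 10 MHC class II genes. The class II share was near that of all genes. Some lists outside the interferon response were like MHC class I, with 3 of 13 collagen and matrix genes and 2 of 9 skeletal muscle markers. Endoplasmic reticulum chaperones had 0 of 12. These matches are letters in a window and not measured binding.

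The 12 libraries held 26140269 to 46799030 counts. CPM is a gene's count after each library is scaled to the same sum over genes. The labels name both NK cells and Panc02 as the source of the co-culture RNA. From 296 genes restricted to NK cells, NK RNA made up 2.71% and 3.35% of the co-cultures with female NK cells and 2.05% and 1.72% of those with male NK cells. For each gene, the NK level is this share multiplied by the level in NK cells cultured alone. It assumes that NK cells express each gene in co-culture as they do alone, which was not tested. The NK granule gene Gzmc, at 0 in Panc02 alone, had an NK level of 1.5% of its co-culture level. That of Fcer1g was 163%. A low NK level therefore does not place a rise in Panc02 cells. A set of 67 genes was taken to mark Panc02 RNA, at 20 CPM or more in both Panc02 libraries and at most 0.05 CPM in fresh NK cells. These 67 genes stood at 92.3% to 95.1% of their culture level in the co-cultures and at 27.6% to 43.7% in the allografts. Because they were picked as high in culture, the choice itself favours a lower level elsewhere. They were not screened against other host cells or for a stable level in tumours. The keratins Krt7, Krt8, Krt18 and Krt19 were at 324 to 1530 CPM in every co-culture, whereas the epithelial marker Epcam was below 1 CPM there (0.802 to 0.94 CPM). The 14 macrophage and monocyte markers summed to 108 to 115 CPM in co-cultures, where 7 of them were at 0 in all libraries, and to 4150 to 8480 CPM in allografts. T cell markers summed to 13 to 27.8 CPM and 99.1 to 245 CPM, and skeletal muscle markers to 2.46 to 4.25 CPM and 757 to 35800 CPM. In bulk RNA, fewer cells of a type and less RNA per cell cannot be told apart, and an allograft value holds tumour and host cells together.

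Between allografts and co-cultures, 9359 of 21297 genes were higher (43.9%) and 6578 lower (30.9%) in allografts by edgeR's quasi-likelihood test at an adjusted p of 0.05. Scaled instead to the 67 Panc02 genes, a choice made after seeing the data, 17788 genes were higher and 711 lower, and the median log2 fold change of all genes went from 0.28 to 1.74. Values below are relative to all RNA in a library unless they say otherwise. Against Panc02 cultured alone, 1862 of 18172 genes (10.2%) rose and 795 (4.37%) fell in co-culture. Of the 1862, 1065 had an NK level below 20% of the co-culture level. Against the same 2 Panc02 libraries, 8901 of 23264 genes were higher (38.3%) and 5123 lower (22.0%) in allografts. These comparisons share libraries, so their values are given side by side and not as support for each other.

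**Figure D1:**
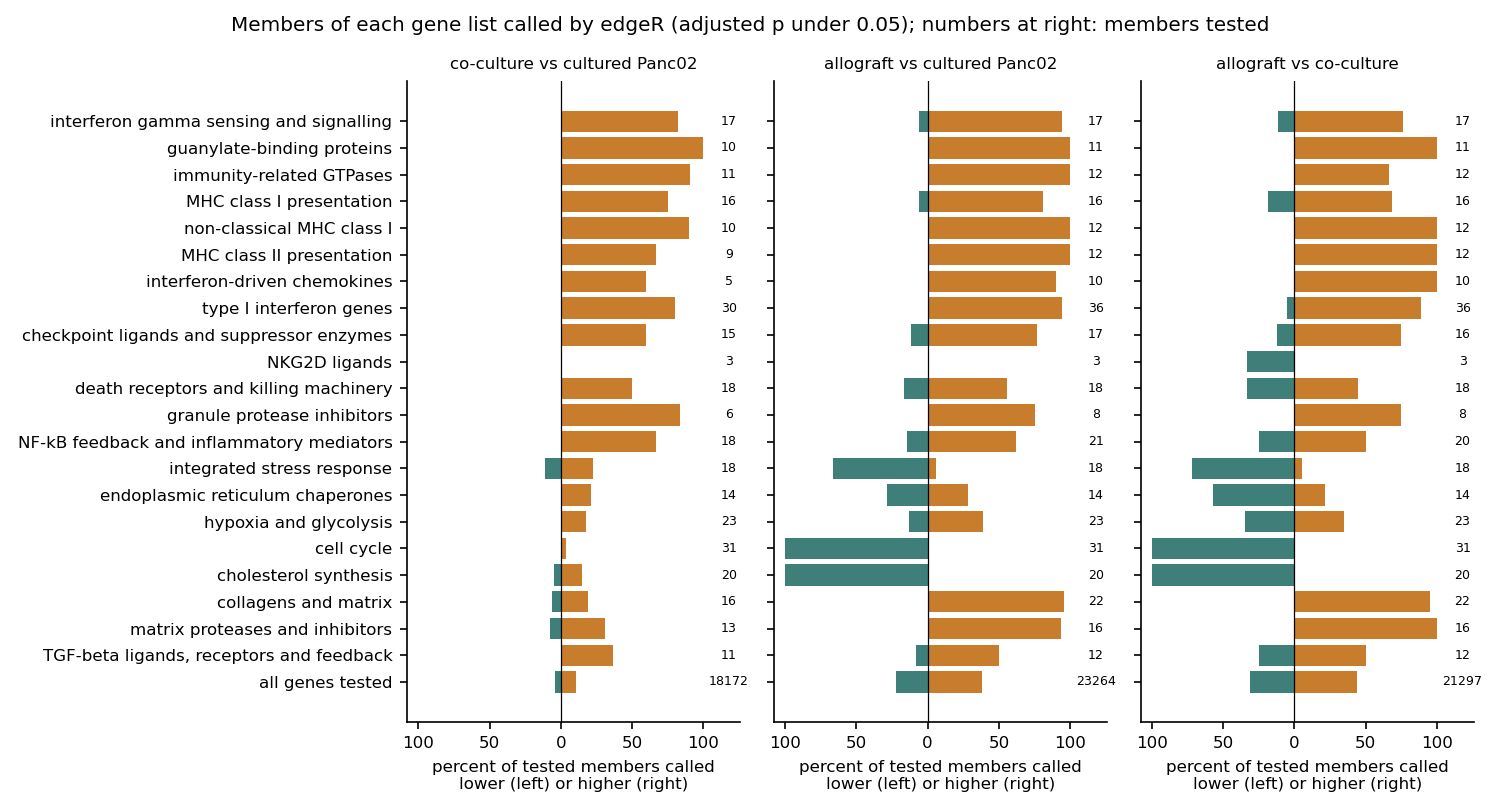
Percent of the tested members of each gene list called lower (left) or higher (right) by edgeR in 3 comparisons, with the number of members tested at the right and all genes in the bottom row. All GBPs tested were higher in each comparison, whereas the 31 cell cycle and 20 cholesterol synthesis genes were all lower in both comparisons of allografts, with 1 and 4 of them called in co-culture.

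Interferon gamma itself was called lower per RNA in the tumours, but not in every fit. Ifng was at 4.01 and 4.04 CPM with female and 2.39 and 1.82 CPM with male NK cells, 0 in both Panc02 libraries, and 0.0765 to 2.64 CPM in allografts (median 0.943 CPM). The groups overlapped, and the log2 fold change of allograft over co-culture was -1.47 ± 0.58 (SE, edgeR adjusted p = 0.034). This call held in 6 of 12 fits that left out 1 library, with edgeR adjusted p up to 0.102. It was also lost without the filter on low counts, with a block for replicate number and when scaled to Panc02 genes. NK RNA at the level of NK cells cultured alone would make up 43.8% of the co-culture level of Ifng. Of 17 genes that sense or relay interferon gamma, 13 were higher and 2 lower in allografts than in co-cultures (median log2 fold change 0.89), and 14 rose and 0 fell in co-culture against Panc02 alone (median 1.31). The second lower gene was the kinase Jak2, at 259 to 284 CPM in co-cultures and 44.9 to 175 CPM in allografts, without overlap. Jak2 did not pass the test in co-culture against Panc02 alone (log2 fold change 0.03). Scaled to Panc02 genes, its difference between the systems was -0.20 and was not called.

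Irf1, the transcription factor that relays the signal to many targets, rose in co-culture by 2.68 on the log2 scale (edgeR adjusted p = 0.0214), but had no called difference between the systems. Irf1 was at 22.7 and 21.4 CPM in Panc02 alone, 185, 162, 102 and 95.6 CPM in co-cultures and 116 to 279 CPM in allografts (median 203 CPM). The allografts and co-cultures overlapped, with a log2 fold change of 0.48 ± 0.27 (SE, edgeR adjusted p = 0.125). Of the alternatives run, the scaling to Panc02 genes alone called Irf1 higher in allografts (1.92, edgeR adjusted p = 1.53e-05). The feedback inhibitor Socs3 (23.2 to 33.4 CPM in co-cultures, 96.3 to 165 CPM in allografts), the receptor chain Ifngr2 and Stat3 did not overlap between the systems and were higher in allografts by 2.20, 1.00 and 1.04 on the log2 scale. Ifngr2 was flat in co-culture (log2 fold change 0.02, edgeR adjusted p = 0.853), whereas Stat3 rose there by 1.02. Nlrc5, the activator of MHC class I genes, was higher in allografts by 0.81 (edgeR adjusted p = 0.0407). This call of Nlrc5 held in 5 of 12 fits that left out 1 library (edgeR adjusted p up to 0.105) and was lost without the filter on low counts. Jak1 showed 139 to 155 CPM in co-cultures and 144 to 186 CPM in allografts (log2 fold change 0.04, edgeR adjusted p = 0.655).

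**Figure D2:**
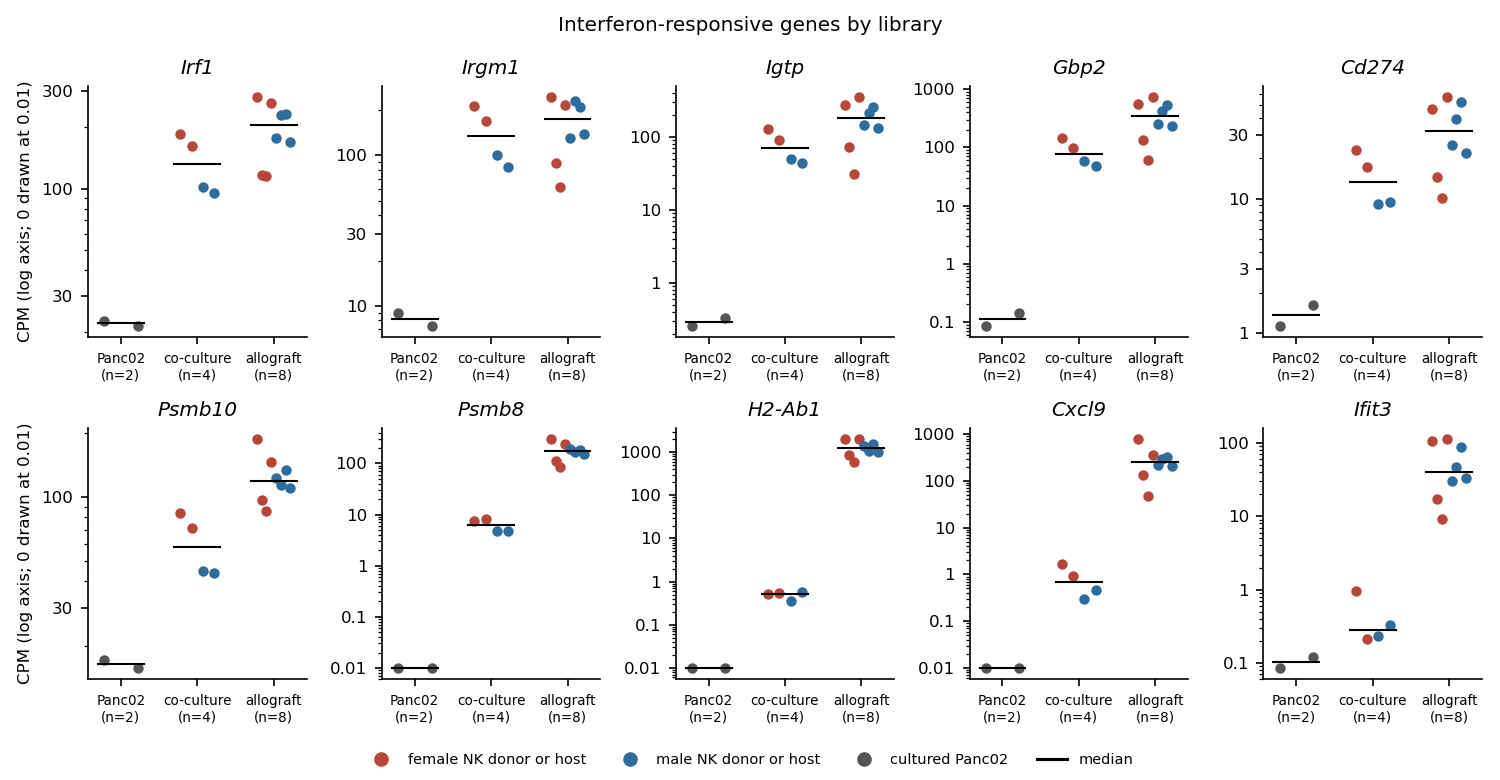
CPM of 10 interferon-responsive genes in each library of cultured Panc02, co-culture and allograft, on log axes with the median as a line. Irf1, Irgm1, Igtp and Gbp2 were already high in co-cultures and overlapped with allografts, whereas Psmb8, H2-Ab1, Cxcl9 and Ifit3 in every allograft lay above every co-culture.

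Guanylate-binding proteins were near 0 in Panc02 alone and present in both systems. Their summed level was 0.512 and 0.593 CPM in Panc02 alone, 239, 169, 105 and 90 CPM in co-cultures and 124 to 1300 CPM in allografts. All 10 tested GBPs rose in co-culture (median log2 fold change 9.23), and all 11 were higher in allografts than in co-cultures (median 2.08). Gbp2 was the most abundant, at 145, 95.8, 58.7 and 47.7 CPM in co-cultures and 0.0854 and 0.142 CPM in Panc02 alone. The NK level made up 1.63% of it. In allografts Gbp2 ran from 60.3 to 723 CPM with a median of 340 CPM, higher by 2.02 ± 0.62 (log2, SE, edgeR adjusted p = 0.011). The allografts from female hosts 3 and 2, at 60.3 and 133 CPM, fell within the range of the co-cultures. Gbp3 and Gbp6 also overlapped and were higher in allografts by 3.20 and 2.12 on the log2 scale. Gbp4 was higher by 1.42 (edgeR adjusted p = 0.032), a call lost in 3 of 12 fits without 1 library. Gbp5 did not overlap (1.36 to 3.97 CPM against 9.26 to 82 CPM), but its NK level stood at 51.5% of its co-culture level.

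Several abundant immunity-related GTPases had no called difference between co-culture and tumour. Of 12 tested, 8 were called higher in allografts and 0 lower (median log2 fold change 1.56), and 10 of 11 rose in co-culture (median 8.44). The 4 without a call, Irgm1, Igtp, Tgtp1 and Tgtp2, were among the most abundant members. Irgm1, which regulates the other GTPases, was at 8.92 and 7.36 CPM in Panc02 alone and 213, 169, 101 and 83.9 CPM in co-cultures. In allografts it was at 61.6 to 242 CPM (median 173 CPM), a log2 fold change of 0.15 ± 0.37 (SE, edgeR adjusted p = 0.724). Igtp was at 129, 90.1, 50.1 and 44 CPM in co-cultures and 30.5 to 345 CPM in allografts (median 178 CPM), a log2 fold change of 1.16 ± 0.57 (edgeR adjusted p = 0.0813). For both genes the co-cultures lay inside the range of the allografts. DESeq2 called Igtp higher in allografts (adjusted p = 0.0422), and the scaling to Panc02 genes called all 12 members higher. Tgtp1 and Tgtp2 are near-identical neighbours, and multi-mapping reads were counted, so their split is uncertain. Irgm2 was higher in allografts, at 70.9, 52.9, 28.3 and 23.4 CPM against 36 to 260 CPM (log2 fold change 1.69 ± 0.51, edgeR adjusted p = 0.00989), although the groups overlapped. Ifi47 did not overlap, at 6.77 to 19.7 CPM and 30.8 to 143 CPM, with an NK level of 39% in co-culture. The NK level was 1.13% to 3.98% of the co-culture level for Irgm1, Igtp, Irgm2, Tgtp1 and Tgtp2. Gm12185, which also rose in co-culture (log2 fold change 7.04), showed no called difference between the systems (0.75, edgeR adjusted p = 0.218).

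The rises of interferon-responsive genes in co-culture rest on 2 libraries of Panc02 alone and 4 co-cultures, and several calls turned on single libraries. When either Panc02 library was left out, 47 of 77 named calls were lost, among them those of Gbp2, Igtp, Irgm1, Irf1, Cd274 and Ciita. Over the 6 fits that each left out 1 library, Gbp2 had log2 fold changes of 9.25 to 9.99 (edgeR adjusted p up to 0.155) and Irf1 2.50 to 2.81 (edgeR adjusted p up to 0.181). Irf1, Irgm1, Igtp and Cd274 also lost their calls without the second co-culture with female NK cells. Gbp3 and Ifng kept theirs in all 6 such fits.

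**Figure D3:**
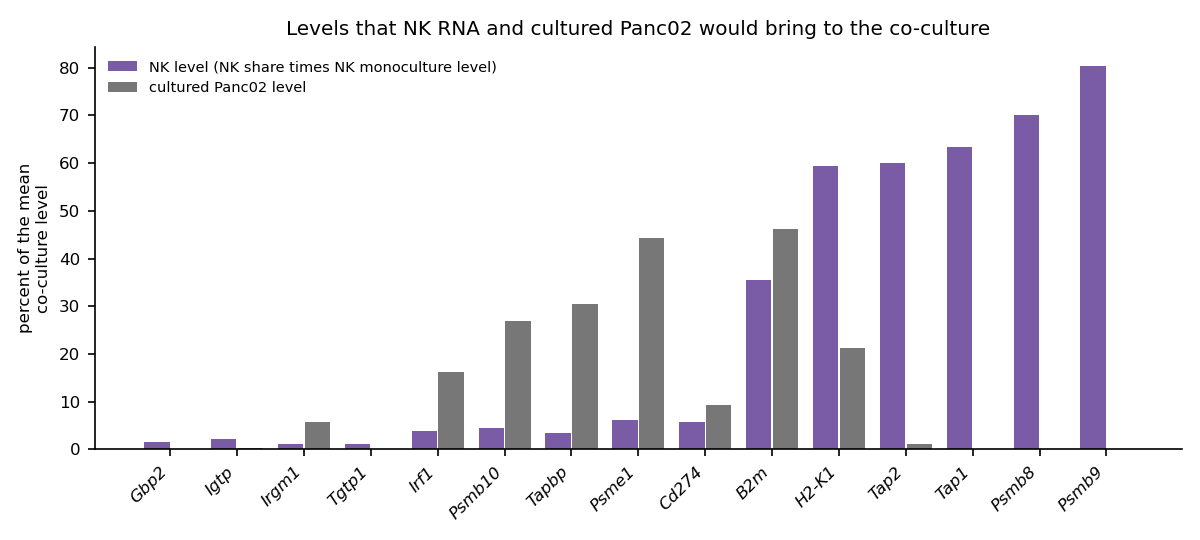
Level that NK RNA would bring (purple) and level in cultured Panc02 (grey), each as a percent of the mean co-culture level, for 15 interferon-responsive genes. Both bars are low for Gbp2, Igtp, Irgm1 and Tgtp1, whereas the NK level makes up 59.7% to 80.5% for H2-K1, Tap2, Tap1, Psmb8 and Psmb9.

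MHC class I presentation split into genes shared by both systems and genes that were far higher in tumours. Of 16 members, 11 were higher and 3 lower in allografts than in co-cultures (median log2 fold change 1.35), and 12 rose in co-culture (median 1.77). Psmb8 and Psmb9, proteasome subunits that interferon induces, were at 0 in Panc02 alone. Psmb8 was at 7.62, 8.21, 4.66 and 4.71 CPM in co-cultures and 85 to 294 CPM in allografts (median 175 CPM). Every allograft was above every co-culture, by a log2 fold change of 4.75 ± 0.38 (SE, edgeR adjusted p = 1.83e-07). The peptide transporter genes Tap1 and Tap2 were likewise higher by 3.65 and 3.40. The NK level stood at 70.1%, 80.5%, 63.5% and 60.1% of the co-culture levels of Psmb8, Psmb9, Tap1 and Tap2. H2-K1, a classical class I heavy chain, was at 32.1 and 33.7 CPM in Panc02 alone, 112 to 194 CPM in co-cultures and 556 to 1800 CPM in allografts (log2 fold change 2.91). B2m, the shared light chain, was higher in allografts by 2.82. The NK level stood at 59.7% and 35.6% of the co-culture levels of H2-K1 and B2m. It was smaller, at 3.55% to 6.53%, for Psmb10, Tapbp, Tapbpl and Erap1. Psmb10, also an inducible proteasome subunit, was at 83.8, 71.1, 44.6 and 44 CPM in co-cultures against 17.1 and 15.7 CPM in Panc02 alone, and was higher in allografts by 0.97 (86 to 186 CPM, edgeR adjusted p = 0.00175). Tapbp, Tapbpl and Erap1, which edit or trim peptides, rose by 1.76, 1.77 and 1.84 in co-culture. Tapbpl and Erap1 had no called difference between the systems (edgeR adjusted p = 0.273 and 0.296), and Tapbp was higher in allografts by 0.67 with overlap. The lower members Canx, Pdia3 and Calr, chaperones of the endoplasmic reticulum, had log2 fold changes of -1.31, -0.40 and -0.25, and all 3 turned positive when scaled to Panc02 genes (0.14, 1.06 and 1.22). Calr lost its call in 5 of 12 fits without 1 library.

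MHC class II genes were abundant in tumours and at low levels in co-cultures, apart from the antigen processing genes Ifi30 and Lgmn, which Panc02 also expressed alone. All 12 were higher in allografts (median log2 fold change 8.87), and their sum was 78.5 to 83.9 CPM in co-cultures, 77.1 and 78.8 CPM in Panc02 alone and 4260 to 13500 CPM in allografts. In co-culture 6 of 9 tested rose and 0 fell against Panc02 alone (median 3.77), beside 10.2% of all genes that rose. H2-Ab1, a class II chain found on antigen-presenting cells, was at 0.349 to 0.569 CPM in co-cultures and 583 to 1980 CPM in allografts (log2 fold change 11.28 ± 0.52, SE, edgeR adjusted p = 1.57e-09). Ciita, the master activator of class II genes, was at 0.624, 0.491, 0.175 and 0.219 CPM in co-cultures and 30.6 to 81 CPM in allografts. It rose in co-culture against Panc02 alone by 4.81 (edgeR adjusted p = 0.00804) at a level under 1 CPM, with an NK level of 11.8%. This call of Ciita held in 3 of 5 fits without 1 library (log2 fold change 4.03 to 7.04, edgeR adjusted p up to 0.0982) and was lost without either Panc02 library. Cd74, Ctss and Lgmn, which process class II molecules or antigen, did not overlap between the systems. Markers of antigen-presenting cells moved with these genes. Besides the macrophage markers above (13 of 14 called higher), 9 of 9 dendritic cell markers summed to 16.3 to 20.2 CPM in co-cultures and 189 to 255 CPM in allografts. B and plasma cell markers, also called higher for 9 of 9, went from 1.41 to 2.83 CPM up to 64.3 to 2350 CPM. Their part in the result was not tested. All 12 tested non-classical class I genes were higher in allografts (median 2.71), and 9 of 10 rose in co-culture against Panc02 alone (median 2.78). Among them, H2-M3 was at 0.32 to 1.11 CPM in co-cultures and 18.5 to 43.2 CPM in allografts. H2-T23, the ligand of the NK receptor pair CD94-NKG2, was at 42.7 to 64.3 CPM in co-cultures and 139 to 369 CPM in allografts. The NK level stood at 93.5%, 92.5% and 90.1% of the co-culture levels of H2-Q4, H2-Q6 and H2-Q7. For H2-T23 and H2-T22 it was 10% and 13.7%. The rise of this list in co-culture therefore includes genes whose level NK RNA could nearly make up.

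Chemokines that recruit T cells and monocytes were far higher in tumours. All 10 tested were higher in allografts than in co-cultures (median log2 fold change 8.65), and 3 of 5 rose in co-culture against Panc02 alone (median 2.88). Cxcl9, a ligand of the T cell receptor CXCR3, was at 1.63, 0.919, 0.291 and 0.46 CPM in co-cultures, 0 in Panc02 alone and 48.1 to 771 CPM in allografts (median 258 CPM). The groups did not overlap, and the log2 fold change was 8.40 ± 0.92 (SE, edgeR adjusted p = 4.87e-06). Cxcl10, a second CXCR3 ligand, was already at 8.09, 4.81, 2.36 and 2.36 CPM in co-cultures, against 0.576 and 0.665 CPM in Panc02 alone, and reached 11.4 to 87.4 CPM in allografts. Cxcl10 was higher in allografts by 3.19 (edgeR adjusted p = 0.000346). Its difference of 2.88 between co-culture and Panc02 alone missed the threshold with edgeR (adjusted p = 0.0567) but passed it with DESeq2 (adjusted p = 0.000246), without the filter on low counts and in 3 of 6 fits without 1 library (edgeR adjusted p from 9.07e-05 to 0.364). The monocyte attractants Ccl2, Ccl7, Ccl8 and Ccl12 were at 0 in all 4 co-cultures and both Panc02 libraries. In allografts they ran from 9.79 CPM, the lowest value of Ccl2, to 578 CPM, the highest of Ccl8. Against a floor of 3 counts over the 4 co-cultures they were at least 1080-fold (Ccl2) to 17300-fold (Ccl8) higher. Mates of a read pair were counted singly, so these bounds may be too high. Ccl5, which NK cells secrete, was at 14.3 to 21.8 CPM in co-cultures and 27.3 to 109 CPM in allografts, and the NK level made up 94.2% of its co-culture level. Cxcl16 was higher in allografts by 5.45 on the log2 scale. Cx3cl1, at 42.7 to 45.8 CPM in co-cultures and 46 to 124 CPM in allografts, was higher by 0.57 (edgeR adjusted p = 0.0393), a call lost in 5 of 12 fits without 1 library.

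Antiviral genes of the type I interferon response followed the same direction, with exceptions. Of 36 tested, 32 were higher and 2 lower in allografts than in co-cultures (median 3.11), and 24 of 30 rose in co-culture (median 1.78). Parp14 was at 25.5, 22.9, 11.7 and 11.6 CPM in co-cultures, 0.427 and 0.285 CPM in Panc02 alone and 33.6 to 106 CPM in allografts. It did not overlap between the systems (log2 fold change 2.08 ± 0.34, SE, edgeR adjusted p = 0.000101). Isg15, a ubiquitin-like modifier, had 4.14 to 6.55 CPM in co-cultures and 17.8 to 43.9 CPM in allografts, a difference of 2.42. The sensor gene Oas2 stayed under 1 CPM in every co-culture (0.0582 to 0.201 CPM) and reached 6.9 to 20.5 CPM in allografts. Ifit3, which restricts viral translation, was at 0.214 to 0.958 CPM in co-cultures and 9.1 to 112 CPM in allografts, higher by 6.92 ± 0.95 (SE, edgeR adjusted p = 3.3e-05). Its difference between co-culture and Panc02 alone was 2.12 (edgeR adjusted p = 0.0931). Oasl2 and Trim30a were higher in allografts by 3.10 and 2.94. The lower genes were Oasl1 (-0.88, edgeR adjusted p = 0.000569) and Eif2ak2, the kinase PKR (-0.55, edgeR adjusted p = 0.0335). Scaled to Panc02 genes, both differences turned positive, at 0.57 and 0.88. The call of Eif2ak2 held in 5 of 12 fits without 1 library, with edgeR adjusted p up to 0.115. Ifitm3, among the most abundant, had 573 to 659 CPM in co-cultures and 533 to 823 CPM in allografts, which overlapped (-0.06, edgeR adjusted p = 0.633, and 1.39 when scaled to Panc02 genes).

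Most ligands and enzymes that restrain immune cells were higher in tumours, but their summed level was not. Of 16 tested, 12 were higher and 2 lower in allografts (median log2 fold change 2.05), beside 43.9% and 30.9% of all genes. In co-culture 9 of 15 rose (median 0.86), beside 10.2% of all genes that rose. Their sum was 995 to 1070 CPM in co-cultures and 748 to 1080 CPM in allografts. PD-L1 (Cd274) was at 1.13 and 1.61 CPM in Panc02 alone and 23.1, 17.2, 9.2 and 9.41 CPM in co-cultures, a rise of 3.48 ± 0.63 (log2, SE, edgeR adjusted p = 0.0338). In allografts it ran from 10.1 to 57 CPM with a median of 32.3 CPM, and the groups overlapped. The difference between the systems was 1.13 ± 0.47 (edgeR adjusted p = 0.0456), a call that held in 5 of 12 fits without 1 library (edgeR adjusted p from 0.0151 to 0.109). Vsir (VISTA), the ectonucleotidase Entpd1 (CD39) and Lgals9 (galectin-9) did not overlap and were higher in allografts by 5.15, 4.68 and 3.10. The NK level stood at 57.8%, 146% and 24.3% of their co-culture levels. Arginase 1 (Arg1), which depletes arginine, was at 0.334 to 0.94 CPM in co-cultures and 25.5 to 117 CPM in allografts, and did not pass the test in co-culture (0.38). Nos2, the inducible nitric oxide synthase, was at 0 in 3 of 4 co-cultures and at 2.95 to 23.2 CPM in allografts. Ido1, which degrades tryptophan, rose in co-culture to 0.219 to 0.602 CPM from 0 in Panc02 alone, and its difference of 1.67 between the systems missed the threshold with edgeR (adjusted p = 0.0621). Ido1 passed it with DESeq2 (adjusted p = 0.0233), when scaled to Panc02 genes, without the 2 allografts richest in muscle RNA (edgeR adjusted p = 0.0336) and in 2 of 12 fits without 1 library. Among the lower genes, Ptgs2, the inducible cyclooxygenase that makes prostaglandins, moved in opposite directions. It was at 336 and 371 CPM in Panc02 alone, 646, 614, 588 and 624 CPM in co-cultures and 9.22 to 38.9 CPM in allografts (median 26 CPM). Ptgs2 rose in co-culture by 0.86 ± 0.05 (SE, edgeR adjusted p = 4.27e-10) and was lower in allografts than in co-cultures, at -4.72 ± 0.29 (edgeR adjusted p = 1.39e-08). Pvr, the ligand of the receptors DNAM-1 and TIGIT, was lower in allografts (-1.28) but turned to 0.18 when scaled to Panc02 genes.

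No ligand of the NK receptor NKG2D passed the test as higher in either system against Panc02 alone, whereas scaling to Panc02 genes called 3 of 3 tested higher in allografts. Of the 5 genes found, 3 passed the filter on low counts, and 0 rose or fell in co-culture against Panc02 alone (edgeR, with 0 by DESeq2). Ulbp1 alone had an unadjusted p under 0.05 there (0.0292). Raet1e was at 38.3 to 43.3 CPM in co-cultures and 22.9 to 39.2 CPM in allografts, lower at -0.51 (edgeR adjusted p = 0.00113), and 0.95 when scaled to Panc02 genes. Ulbp1 (-0.39, edgeR adjusted p = 0.0573, and 1.08 when scaled to Panc02 genes) and Raet1d (0.37, edgeR adjusted p = 0.22) missed the threshold. Ulbp1 passed it as lower with voom weights (limma adjusted p = 0.0195), with a sex term (edgeR adjusted p = 0.0409), with Panc02 alone added to the fit (edgeR adjusted p = 0.0442) and in 3 of 12 fits without 1 library.

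Receptors and effectors of cell death were called higher (8) or lower (6) in 14 of 18, shares close to the 43.9% and 30.9% of all genes, with a median log2 fold change of 0.07. In co-culture 9 of 18 rose and 0 fell against Panc02 alone (median 0.40), beside 10.2% of all genes that rose. Fas, a death receptor, was at 0.64 to 1.29 CPM in co-cultures and 5.8 to 28.6 CPM in allografts (median 19.6 CPM), higher by 4.19 ± 0.50 (SE, edgeR adjusted p = 5.28e-06). Tnfrsf10b, the mouse receptor of TRAIL, was at 69.7 to 78.3 CPM in co-cultures and 14.5 to 29.9 CPM in allografts, with a log2 fold change of -1.90 ± 0.13 (SE, edgeR adjusted p = 3.14e-08). Neither gene passed the test in co-culture against Panc02 alone (0.80 and -0.01). Casp12 was higher in allografts by 6.19. Gsdmd, which forms pores in pyroptosis, rose from 38.1 and 36.2 CPM in Panc02 alone to 62.4 to 82.5 CPM in co-cultures and was at 58.5 to 87.2 CPM in allografts. The difference of Gsdmd between the systems was -0.09 (edgeR adjusted p = 0.503), or 1.39 when scaled to Panc02 genes. Mlkl and Bak1 rose in co-culture by 0.43 and 0.38 and were lower in allografts than there (-0.62 and -0.36), turning to 0.84 and 1.11 when scaled to Panc02 genes. Of 8 inhibitors of granule and complement proteases tested, 6 were higher in allografts and 0 lower (median 2.32), and 5 of 6 rose in co-culture (median 2.19). Serpinb9, which blocks granzyme B, was at 4.33 and 4.25 CPM in Panc02 alone and 36.6, 35.4, 24.6 and 19 CPM in co-cultures. In allografts it had 50.1 to 110 CPM, above every co-culture (1.34 ± 0.25, SE, edgeR adjusted p = 0.000303). The NK level stood at 34.6% of the co-culture level of Serpinb9. Its relative Serpinb6b and the complement inhibitor Serping1 were higher in allografts by 2.50 and 11.99.

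Of 20 targets and mediators of NF-kB tested, 10 were higher and 5 lower in allografts (median 0.54), near the 43.9% and 30.9% of all genes. In co-culture 12 of 18 rose and 0 fell (median 0.39), beside 10.2% of all genes that rose. The adhesion molecule Vcam1 was at 0.468 to 0.99 CPM in co-cultures and 54.5 to 211 CPM in allografts, and Birc3 was higher by 3.07. The cytokine Lif was at 47.9 and 46.7 CPM in Panc02 alone, 78.4, 63.9, 59.1 and 65.2 CPM in co-cultures and 13.7 to 32.5 CPM in allografts. Lif rose in co-culture by 0.55 (edgeR adjusted p = 0.000752) and was lower in allografts than in co-cultures, at -1.88 ± 0.18 (SE, edgeR adjusted p = 7.37e-07). Csf2 (GM-CSF) had the same pair of directions, at 0.0854 and 0.0475 CPM in Panc02 alone, 0.902 to 1.78 CPM in co-cultures and 0 to 0.738 CPM in allografts. Neither Lif nor Csf2 was called lower when scaled to Panc02 genes. The feedback inhibitor Tnfaip3 rose in co-culture by 1.35 and had a difference of 0.02 between the systems (edgeR adjusted p = 0.914). Nfkb2 was lower in allografts at -0.68, and 0.79 when scaled to Panc02 genes. Nr4a3, an early-response nuclear receptor, rose in co-culture from 0.406 and 0.237 CPM to 4.86 to 8.09 CPM, and was at 2.99 to 6.2 CPM in allografts (-0.53, edgeR adjusted p = 0.0596, and 0.94 when scaled to Panc02 genes).

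**Figure D4:**
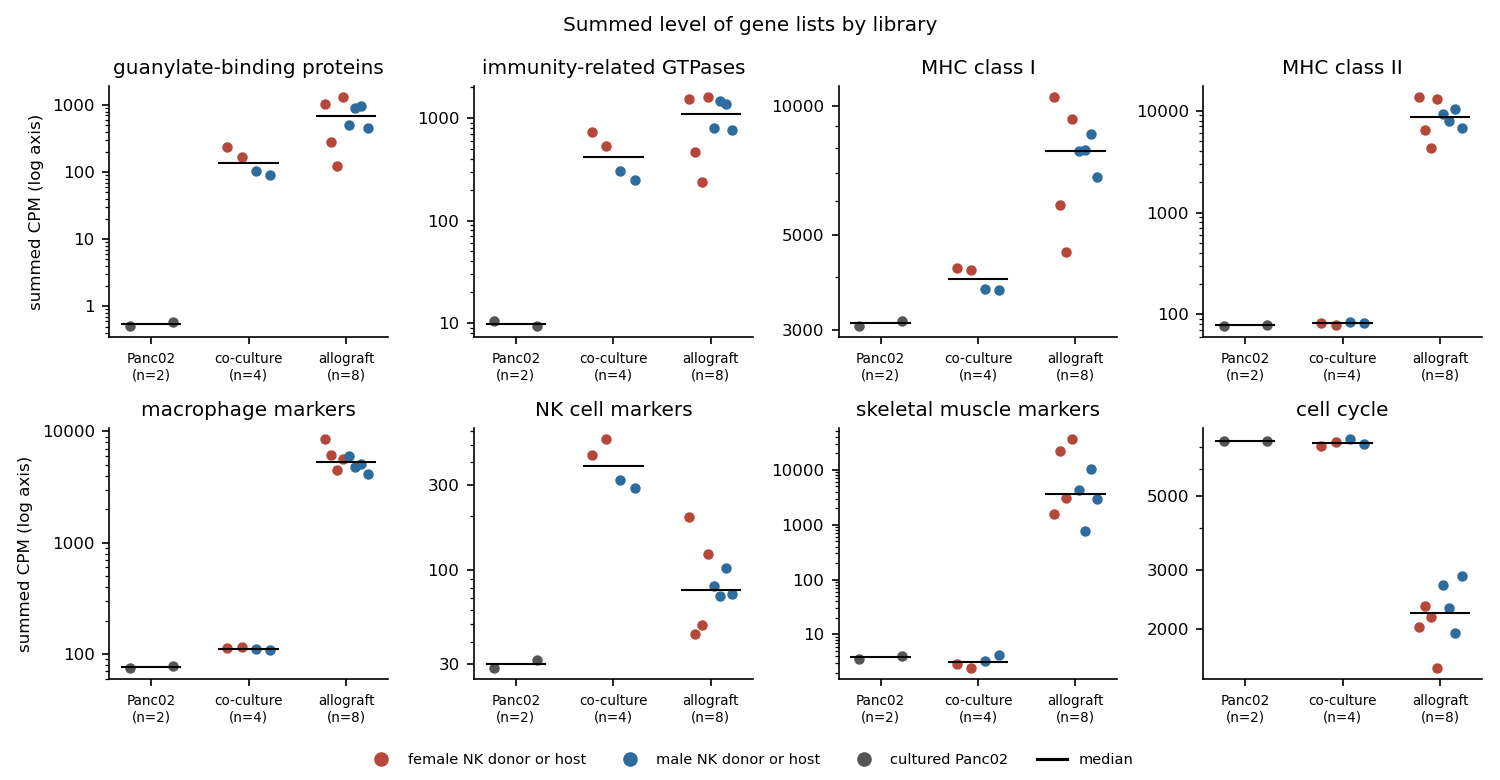
Summed CPM of gene lists in each library of cultured Panc02, co-culture and allograft, on log axes. GBP and IRG sums overlap between co-cultures and allografts, whereas every allograft lies above every co-culture for MHC class II and macrophage markers and below every co-culture for cell cycle genes.

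Growth and biosynthesis genes were mostly lower per RNA in tumours, and the cell cycle genes were little moved in co-culture. All 31 cell cycle genes were lower in allografts than in co-cultures (median log2 fold change -1.67), and 1 rose and 0 fell in co-culture against Panc02 alone. Their sum was 7060 to 7380 CPM in co-cultures and 1530 to 2890 CPM in allografts. Mki67, the proliferation marker Ki-67, was at 601 to 666 CPM in co-cultures and 51.5 to 196 CPM in allografts, with a log2 fold change of -2.34 ± 0.24 (SE, edgeR adjusted p = 1.36e-06). The cyclins Ccne2 and Ccnb1 were lower at -3.32 and -2.25. Scaled to Panc02 genes, 12 of the 31 were lower and 2 higher (median -0.19). All 20 cholesterol synthesis genes were lower as well (median -1.97), among them Hmgcs1 (-2.06) and Idi1 (-3.05), and 12 remained lower and 4 were higher under that scaling. Genes of the integrated stress response, which ATF4 drives under amino acid or protein stress, were lower for 13 and higher for 1 of 18 tested (median -0.95). The cystine importer Slc7a11 was at 61.3 to 70.6 CPM in co-cultures and 1.8 to 7.4 CPM in allografts (-3.93 ± 0.32, SE, edgeR adjusted p = 2.12e-07), although it rose in co-culture by 0.38. The serine and asparagine synthesis genes Psat1 and Asns were lower at -2.60 and -2.41, Shmt2 at -2.11 and Trib3 at -1.62. Atf3 alone was higher, by 0.68. Under the scaling to Panc02 genes, 6 of the 18 were lower and 10 higher (median 0.50). In co-culture 4 of these 18 rose and 2 fell against Panc02 alone, beside 10.2% and 4.37% of all genes. Of the 20 cholesterol synthesis genes, 3 rose and 1 fell there. Hypoxia and glycolysis genes were higher for 8 and lower for 8 of 23, near the 43.9% and 30.9% of all genes.

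Matrix genes, part of which Panc02 already expressed in culture, were higher in tumours. Of 22 collagens and matrix genes, 21 were higher in allografts than in co-cultures and 0 lower (median log2 fold change 9.12), and 3 of 16 rose and 1 fell in co-culture. Their sum was 2080 and 2160 CPM in Panc02 alone, 2020 to 2240 CPM in co-cultures and 26300 to 63800 CPM in allografts. Fibronectin (Fn1) was at 898 and 946 CPM in Panc02 alone, 861 to 1030 CPM in co-cultures and 5700 to 9490 CPM in allografts. Col1a1, the main chain of type I collagen, was at 0.547 to 1 CPM in co-cultures, 0.897 and 0.807 CPM in Panc02 alone and 3950 to 14000 CPM in allografts (13.53 ± 0.59, SE, edgeR adjusted p = 8.35e-10). Col6a3 was higher by 9.57. Fibroblast and pericyte markers (11 of 11 called higher) went with these genes, at 36.2 to 50.9 CPM in co-cultures, where 4 were at 0 in all libraries, and 1020 to 1680 CPM in allografts. Their part in the result was not tested. All 16 matrix proteases and inhibitors were also higher, with sums of 1210 and 1240 CPM in Panc02 alone, 1080 to 1160 CPM in co-cultures and 3020 to 4760 CPM in allografts, and 4 of 13 rose and 1 fell in co-culture. Their largest fold was that of Mmp2 at 0 in co-cultures and 295 to 1350 CPM in allografts. The largest rises among genes of at least 5 CPM without overlap were Myh4, Postn, C1qa, C1qb, Myl1, Col5a2, C1qc and Igfbp3, all at 0 in the 4 co-cultures and both Panc02 libraries. They were at least 36500-fold (Igfbp3) to 87900-fold (Myh4) higher. C1qa, C1qb and C1qc encode complement C1q, which macrophages make, Myh4 and Myl1 encode skeletal muscle myosin chains, and Postn and Col5a2 encode matrix proteins. Myh4 ranged from 137 to 5330 CPM among allografts. Without the 2 allografts richest in muscle RNA, from female hosts 4 and 2, a choice made after seeing the data, 8768 genes were higher and 6381 lower.

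The largest falls were in genes that Panc02 expressed in culture, with 1 NK gene among them. Rasef was at 25.5 to 27.5 CPM in co-cultures, 30.1 and 27.3 CPM in Panc02 alone and 0 to 0.128 CPM in allografts (-9.03 ± 0.51, SE, edgeR adjusted p = 5.39e-09). Il5ra, the tight junction gene Cldn3, Sprr2h, Mfap3l, Phlda2 and the cadherin Cdh6 followed, with log2 fold changes of -5.49 to -6.08 and no overlap. The size of 2 of these differences rested on a single allograft. Sprr2h was at 4.97 CPM in male host 7 and had a log2 fold change of -9.52 without it, and Cdh6 was at 5.42 CPM in male host 6 and had -7.07 without it. Gzma, the NK granule protease granzyme A, was at 85.9, 123, 66.7 and 58.2 CPM in co-cultures and 0.459 to 3.01 CPM in allografts (-6.07 ± 0.43, edgeR adjusted p = 6.87e-08). Of 15 NK markers, 12 were lower in allografts and 1 higher. The higher one, Gzmc, was at 6.26, 7.05, 1.08 and 2.52 CPM in co-cultures and 6.84 to 71 CPM in allografts. Ptprc (CD45), carried by all white blood cells, was at 84, 101, 64.2 and 55.4 CPM in co-cultures and 59.1 to 119 CPM in allografts. The difference of Ptprc was -0.04 (edgeR adjusted p = 0.854), or 1.40 when scaled to Panc02 genes. Keratins of Panc02 were lower in allografts, Krt7 at -4.25, Krt19 at -2.41 and Krt8 at -1.39, the last of which turned to 0.05 when scaled to Panc02 genes.

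Part of the interferon-responsive genes were higher in co-cultures with female NK cells. Between 2 co-cultures with female and 2 with male NK cells, 169 genes were higher and 7 lower with female NK cells, 1.02% of 17308 tested. Irf1 was at 173 ± 16.7 CPM with female and 98.8 ± 4.61 CPM with male NK cells (SD, n = 2 each), a log2 difference of 0.78 (edgeR adjusted p = 4.28e-05). Nlrc5, Cd274 and Irgm2 were higher with female NK cells by 1.13, 1.08 and 1.24, and the call of Irgm2 was lost without the first co-culture with male NK cells (edgeR adjusted p = 0.172). By list, 10 of 16 MHC class I, 5 of 10 non-classical class I, 10 of 30 type I interferon, 3 of 10 GBP, 3 of 11 IRG and 0 of 9 MHC class II genes were called higher, and 0 of these genes lower. The NK share moved with these genes, with means of 3.03% for female and 1.88% for male NK cells, as did Gzmb, the NK granule protease granzyme B, at 110 and 59.7 CPM. Of the 176 genes, 57 had an NK level below 20% and 91 one of at least 50%. The part of the NK share in the difference was not tested. Between 4 female and 4 male hosts, 0 genes were higher and 3 lower in females, 0.0146% of 20560 tested, whereas 3087 had an unadjusted p under 0.05 and DESeq2 called 291 higher and 387 lower. The 3 genes, Kdm5d, Eif2s3y and Uty, lie on the Y chromosome. Of 5 sex chromosome markers tested, Xist and Ddx3y were not called between the hosts. The low number of calls therefore does not show that female and male hosts were alike. The difference between the sexes in allograft versus co-culture gave 0 calls in 23386 genes (0%) with edgeR, 1224 with an unadjusted p under 0.05, and 4 higher and 2 lower with DESeq2.

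Allografts differed in their level of Ifng, and 5 interferon-responsive genes moved together with it. Female hosts 3 and 2 gave the lowest Ifng (0.0765 and 0.438 CPM), Gbp2 (60.3 and 133 CPM) and Cd274 (10.1 and 14.6 CPM), whereas female hosts 1 and 4 gave the highest Ifng (2.64 and 2.25 CPM) and Gbp2 (561 and 723 CPM). The male hosts lay between them for Ifng and Gbp2. Over the 8 allografts, on log2(CPM + 1), Ifng and Cxcl9 had r = 0.91 (exact permutation p = 0.00136, adjusted over 5 relations 0.00341) and rho = 0.90 (exact permutation p = 0.00456, adjusted 0.00761). H2-Ab1 had r = 0.93 (exact permutation p = 0.000992, adjusted 0.00341) and rho = 0.90 (exact permutation p = 0.00456, adjusted 0.00761). For Gbp2, Irf1 and Cd274, r was 0.86, 0.88 and 0.82 (exact permutation p = 0.00538, 0.00516 and 0.0127, adjusted 0.00673, 0.00673 and 0.0127). Their rho was 0.88, 0.90 and 0.79 (exact permutation p = 0.00724, 0.00456 and 0.0279, adjusted 0.00905, 0.00761 and 0.0279). Without the allografts of female hosts 1 and 3, which lay farthest from the median of Ifng, r was 0.71 to 0.86 over the 5 genes. Only these 5 genes were related to Ifng, so the share of all genes that moved with it as closely is not known. The lowest Ifng value, 0.0765 CPM, rests on very few counts. A host sex of 4 allografts is too few for a value of its own. NK markers followed the same order at both ends, with sums of 197 and 124 CPM in female hosts 1 and 4, 44.2 and 49.5 CPM in female hosts 2 and 3 and 71.5 to 103 CPM in male hosts. Of the 197 CPM in female host 1, Gzmc alone gave 71 CPM, against 6.84 to 33.1 CPM in the other allografts. T cell markers (12 of 13 called higher than in co-culture) summed to 245 and 195 CPM in female hosts 1 and 4, 99.1 and 169 CPM in female hosts 2 and 3 and 108 to 188 CPM in male hosts. The part of either cell type in the relation was not tested.

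**Figure D5:**
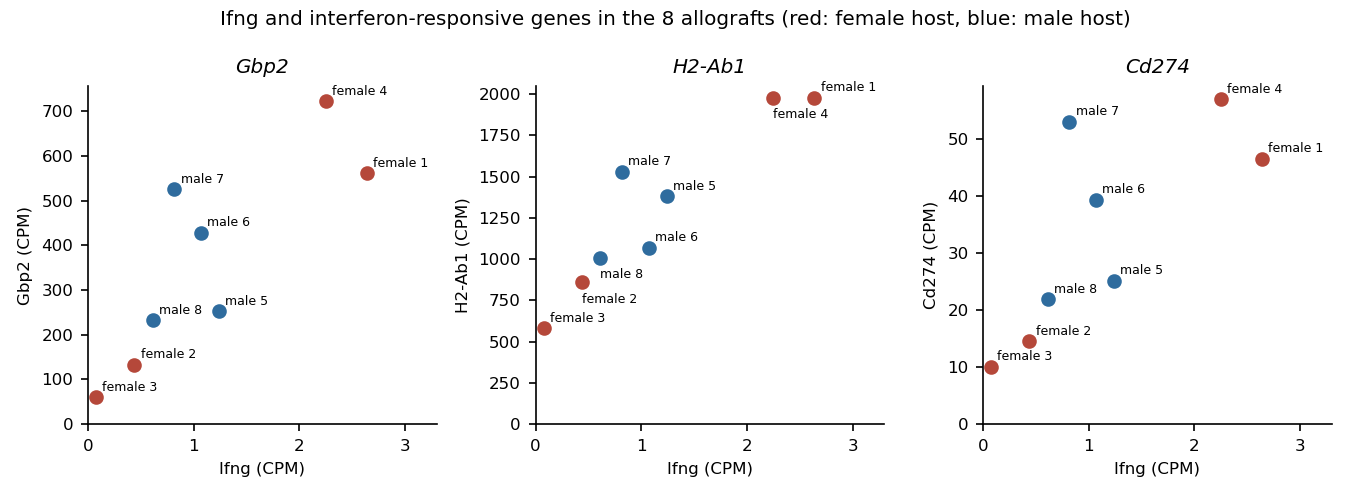
CPM of Gbp2, H2-Ab1 and Cd274 (vertical axes) against CPM of Ifng (horizontal axes) in the 8 allografts, with red points for female and blue points for male hosts, each labelled by number. Female hosts 3 and 2 lie lowest on both axes in all 3 panels, and female hosts 1 and 4 farthest to the right.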

How the data were processed

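Strand-specific libraries of polyadenylated RNA were sequenced, with more input RNA for allografts than for cultures per the labels' protocols. Per the submitters' processing notes, the tools were featureCounts 2.0.6, SAMtools 1.19.2, HISAT2 2.2.1 and cutadapt 4.4. The authors deposited whole-number counts per gene, not normalized, in 2 tables. Per the file headers, counting used GRCm39 gene models, the reverse strand and multi-mapping reads, so near-identical genes share reads. Groups follow the labels. CPM were computed from the table totals. Each comparison was fitted on its own libraries with edgeR 4.0.16 in R 4.3.3 (TMM, filterByExpr, robust quasi-likelihood test, Benjamini-Hochberg threshold 0.05), and the scripts were tested on simulated data. Fold bounds against 0 use a floor of 3 counts over the group. limma 3.58.1 voom, DESeq2 1.42.0, other size factors, no filter and single left-out libraries were the alternatives. No source says whether libraries of a group came from separate cultures, so a p-value covers the variation among these libraries alone, which may be technical. The NK share is the median ratio of co-culture to NK culture over NK-restricted genes (at least 20 CPM in NK cells, at most 0.05 CPM in Panc02). Named genes are the 8 largest differences in each direction at 5 CPM or more without overlap, the 12 largest rises in co-culture with an NK level below 20%, up to 4 members of each list by smallest p plus called members against the majority, and a list of signature genes. Members and lists were chosen with earlier results of these data known, and other members named were chosen after their values were seen. Promoters are from RefSeq (GRCm38.p6) and were matched by symbol. Some genes that these rules name are not reported here.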

Additional observations from a re-analysis of the deposited data

Results flagged for a closer look

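Values were grouped over the 4 co-cultures or the 8 allografts. Of 329 such groups, 28 held a library whose gap to its nearest neighbour was large for the group's range by Dixon's 95% criterion. Chance flags about 1 in 20 groups. The allograft of female host 1 stood above the other 7 for Cxcl9 (771 CPM), Ccl12 (50.8 CPM), Cxcl16 (318 CPM), Cx3cl1 (124 CPM), C1qb (1190 CPM), Psme1 (362 CPM), Psme2 (266 CPM), Bak1 (167 CPM) and Gzmc (71 CPM). It was also highest for the summed interferon-driven chemokines (2140 CPM) and macrophage markers (8480 CPM). The allograft of female host 4 stood high for Igfbp3 (1120 CPM) and Mmp2 (1350 CPM) and low for summed NKG2D ligands (38.1 CPM), and that of female host 2 high for Lif (32.5 CPM). Among male hosts, number 6 stood high for Cdh6 (5.42 CPM), number 7 for Sprr2h (4.97 CPM) and summed skin markers (275 CPM), and number 8 for Phlda2 (1.38 CPM) and Krt19 (167 CPM).

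Of the co-cultures, female 1 stood low for Canx (784 CPM) and high for Ifit3 (0.958 CPM) and summed adipocyte markers (0.312 CPM). Female 2 was the one with any Nos2 (0.0855 CPM) and had the lowest level of Panc02 genes (92.3% of culture). Male 4 stood high for summed collagen and matrix genes (2240 CPM), and male 5 for Vsir (4.07 CPM) and summed neutrophil markers (22.8 CPM).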

How the results depend on the processing

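Scaling to Panc02 genes, chosen after seeing the data, moved the comparison of allografts with co-cultures to 17788 genes higher and 711 lower, and that of allografts with Panc02 alone to 17320 and 483. Of the 15937 calls between allografts and co-cultures, 10070 kept their direction and 3711 had the opposite call. Among named genes, log2 fold changes between allografts and co-cultures turned positive for Calr (1.22), Canx (0.14), Pdia3 (1.06), Oasl1 (0.57), Eif2ak2 (0.88), Ifitm3 (1.39), Pvr (0.18), Raet1e (0.95), Ulbp1 (1.08), Gsdmd (1.39), Mlkl (0.84), Bak1 (1.11), Nfkb2 (0.79), Nr4a3 (0.94), Krt8 (0.05) and Ptprc (1.40). Against Panc02 alone they turned positive for Calr (1.31), Canx (0.17), Pdia3 (1.16), Oasl1 (0.87), Eif2ak2 (1.22), Pvr (0.27), Raet1e (1.00), Ulbp1 (0.86), Mlkl (1.27), Nfkb2 (0.97), Lif (0.15) and Krt8 (0.16). Fitting all 14 libraries together left 833 rises and 33 falls in co-culture, where the spread is shared with the more variable allografts. Leaving out 1 library gave 848 to 2079 rises and 198 to 1052 falls in co-culture, 9089 to 9524 higher and 5883 to 6705 lower between allografts and co-cultures, and 6207 to 8884 higher and 3561 to 5672 lower between allografts and Panc02 alone. The lowest counts in co-culture came without Panc02 library 1, and 47 of 77 named calls were lost there. For host sex, DESeq2 called 291 higher and 387 lower in females, no filter 3 and 11, and leaving out 1 library 0 to 1 and 0 to 4. For NK donor sex, DESeq2 called 27 lower with female NK cells, no filter 352 higher and 81 lower, and leaving out 1 library 159 to 282 and 24 to 95. For the difference between the sexes DESeq2 called 4 higher and 2 lower, and leaving out 1 library gave 0 to 0. The cause of these shifts was not tested. With a replicate block the counts were 8712 higher and 6477 lower between allografts and co-cultures, 1848 and 815 in co-culture, and 7623 and 4421 between allografts and Panc02 alone. With the block Ulbp1 was called lower in co-culture against Panc02 alone (-0.33, edgeR adjusted p = 0.0296) and between the systems (-0.42, edgeR adjusted p = 0.0497), and Cxcl10 was called higher in co-culture (3.38, edgeR adjusted p = 1.23e-08). Libraries that share a number had correlations of deviations from -0.03 to 0.03. Such values show no pairing by number, but they cannot tell whether an animal, culture or batch was shared.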
